A study of Mus musculus with 6 samples.

Results

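The caudal progenitor genes *Cdx1*, *Cdx2*, *Cdx4*, *Nkx1-2*, *Wnt3a*, *Wnt8a* and *Fgf8* were examined for accessible chromatin in neural stem/progenitor cells (NSPCs) with and without a *Sox2* enhancer cluster. A region was assigned to a gene when the strongest summit of the region lay within 50 kb of a transcription start site (TSS) of that gene and no other protein-coding TSS was nearer. The 7 genes held 32 regions, 15 of the 82885 in the parent list and 17 of the 107480 in the ΔSRR2–18 list. Parent NSPCs came from clone 5B, a 129S1/Cast F1 hybrid line with an mCherry tag on the 129S1 copy of *Sox2* and no deletion. ΔSRR2–18 NSPCs came from clone 47D of the same tagged hybrid background, with SRR2–18, an enhancer cluster downstream of *Sox2*, removed by Cas9 from both alleles at the embryonic stem cell stage. Each genotype was therefore 1 clone, so the deletion and the clone cannot be told apart. Cultures, 3 of each genotype, were grown with EGF and bFGF on poly-d-lysine and laminin, with 30000 cells per culture taken for ATAC-seq, in which a transposase cuts open chromatin. The stated depth was 50 to 60 M reads per culture.

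The authors pooled the cultures of each genotype into 1 conservative and 1 optimal peak list, so the values below carry no replicate error and no test between the genotypes was possible. The conservative lists were used unless said otherwise. Summit reads, the pileup height at the strongest point of a region, were recovered as whole numbers for 99.9993% of parent peaks and 100% of ΔSRR2–18 peaks. The genome-mean background was 38.8 reads in the parent pool and 19.7 in the ΔSRR2–18 pool, a depth ratio of 1.98. Summit reads divided by this background are called depth-scaled reads. Bulk chromatin does not separate fewer open cells from less open chromatin per cell. All 10 neural stem/progenitor markers, among them *Sox2*, *Sox1*, *Nes* and *Pax6*, had a region within 1 kb of a TSS in both lists. Of 6 markers of presomitic and paraxial mesoderm, 2 had such a region in the parent list (*Tbx6* and *Meox1*). In the ΔSRR2–18 list 4 had one (*Tbx6*, *Meox1*, *Tcf15* and *Mesp2*), and neither list had one at *T* or *Msgn1*. The counts were 4 and 5 of 5 for definitive endoderm, 2 and 4 of 5 for trophoblast, and 2 and 2 of 5 for pluripotent cells, with none at *Pou5f1* or *Nanog*. The share of all genes with such a region was not computed, and the ΔSRR2–18 list was the longer one (107480 regions against 82885). These counts therefore have no background and do not name a cell type. An open promoter is not expression, and the part of mesoderm, endoderm, trophoblast or pluripotent cells in the results below was not tested.

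CDX1, CDX2 and CDX4 are homeodomain factors of the caudal family that act in the tail bud, where they bind *Hox* loci and set posterior identity. WNT3A and WNT8A signal through β-catenin and, with FGF8, maintain the neuromesodermal progenitors that feed the spinal cord and paraxial mesoderm. NKX1-2 marks the preneural part of that pool, and CDX2 is also a defining factor of trophectoderm and intestine. AP-1 is a dimer of JUN and FOS proteins that binds open enhancers in many growth factor-stimulated cells.

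Sequences of some of the regions are given here on the RefSeq GRCm38.p6 genome, which has the mm10 coordinates of the lists. The choice does not stand for all regions. The AP-1 consensus was found at 6 of the 17 ΔSRR2–18 summits, against 37.9% of all ΔSRR2–18 regions. The deletion-only summits without it are not printed. First come the 201 bases around the strongest ΔSRR2–18 summit of 5 regions, with the AP-1 consensus (TGANTCA) in capitals. The first 4 had no overlap in the parent list. The fifth comes from a region that overlapped a parent region, but its summit and its AP-1 match lay outside the parent interval.
*Cdx4* 22266 bp upstream (chrX:103299032-103299232, forward strand): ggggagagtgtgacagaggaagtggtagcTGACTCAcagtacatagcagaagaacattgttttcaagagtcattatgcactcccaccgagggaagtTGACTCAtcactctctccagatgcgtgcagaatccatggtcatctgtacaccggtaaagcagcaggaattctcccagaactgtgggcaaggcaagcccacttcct
*Cdx4* 21156 bp upstream (chrX:103300142-103300342, forward strand): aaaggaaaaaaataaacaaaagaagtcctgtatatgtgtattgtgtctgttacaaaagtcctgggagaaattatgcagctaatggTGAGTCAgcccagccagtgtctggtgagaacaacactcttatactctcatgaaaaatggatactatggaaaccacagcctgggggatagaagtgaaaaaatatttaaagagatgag
*Cdx4* 47221 bp upstream (chrX:103274077-103274277, forward strand): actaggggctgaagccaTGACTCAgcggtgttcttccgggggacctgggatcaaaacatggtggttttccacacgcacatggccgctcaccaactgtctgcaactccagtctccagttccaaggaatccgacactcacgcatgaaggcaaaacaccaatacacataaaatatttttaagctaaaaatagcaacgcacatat
*Wnt3a* 1602 bp upstream (chr11:59292254-59292454, forward strand): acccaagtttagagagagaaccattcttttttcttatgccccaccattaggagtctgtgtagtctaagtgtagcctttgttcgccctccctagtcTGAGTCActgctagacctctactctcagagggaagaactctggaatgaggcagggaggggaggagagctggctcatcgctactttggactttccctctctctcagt
*Cdx2* 14513 bp downstream of the TSS (chr5:147292657-147292857, forward strand): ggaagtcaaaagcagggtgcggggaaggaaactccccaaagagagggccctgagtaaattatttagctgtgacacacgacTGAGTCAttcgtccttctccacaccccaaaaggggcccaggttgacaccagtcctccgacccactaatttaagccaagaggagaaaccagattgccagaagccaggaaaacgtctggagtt

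Next are 4 windows without that consensus, with CG dinucleotides in capitals. They are the strongest ΔSRR2–18 summit of the *Cdx2* region with the highest ratio among the 10 pairs, the strongest parent-only summit of *Wnt3a*, the strongest parent summit of *Fgf8*, and the 200 bases before the *Nkx1-2* start, where both lists had a summit.
*Cdx2* 7929 bp downstream of the TSS (chr5:147299241-147299441, forward strand): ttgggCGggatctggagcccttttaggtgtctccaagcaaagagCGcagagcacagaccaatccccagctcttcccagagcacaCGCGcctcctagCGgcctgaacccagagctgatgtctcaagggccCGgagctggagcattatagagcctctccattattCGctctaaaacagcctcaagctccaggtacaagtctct
*Wnt3a* 7611 bp into the gene (chr11:59283041-59283241, forward strand): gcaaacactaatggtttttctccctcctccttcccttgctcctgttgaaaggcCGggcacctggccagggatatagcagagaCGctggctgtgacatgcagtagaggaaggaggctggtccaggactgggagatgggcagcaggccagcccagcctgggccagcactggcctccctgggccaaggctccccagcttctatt
*Fgf8* 216 bp upstream (chr19:45743031-45743231, forward strand): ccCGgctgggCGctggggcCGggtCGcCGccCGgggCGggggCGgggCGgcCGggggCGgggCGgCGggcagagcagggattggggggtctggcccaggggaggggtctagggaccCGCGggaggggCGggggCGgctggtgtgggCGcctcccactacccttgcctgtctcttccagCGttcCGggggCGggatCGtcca
*Nkx1-2* promoter (chr7:132599638-132599837, reverse strand): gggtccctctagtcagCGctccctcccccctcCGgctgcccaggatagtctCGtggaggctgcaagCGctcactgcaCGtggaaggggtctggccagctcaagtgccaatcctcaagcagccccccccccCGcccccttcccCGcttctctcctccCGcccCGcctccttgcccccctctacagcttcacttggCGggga

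Which of these regions were found in 1 genotype only was counted first. Of the 15 parent regions, 5 had no overlap in the ΔSRR2–18 list (33.3%), against 52.3% of all parent regions. Of the 17 ΔSRR2–18 regions, 7 had no overlap in the parent list (41.2%), against 63.1% of all ΔSRR2–18 regions. Both shares lay below the background in these lists, and the other 10 regions of each list formed 10 overlapping pairs. The parent-only share lay above it in the optimal lists (9 of 15, or 60.0%, against 51.3%) and in lists of equal length (10 of 15, or 66.7%, against 60.0%). For equal length only the ΔSRR2–18 list was cut, by fold enrichment. The cut removed the ΔSRR2–18 partners at *Cdx1*, the *Fgf8* and *Nkx1-2* promoters, *Cdx2* 511 bp from the TSS and *Wnt3a* 3071 bp upstream. Their parent regions then counted as parent-only, although depth-scaled reads at that *Cdx2* region were 2.48 times higher in ΔSRR2–18 NSPCs. In the full conservative lists, parent-only regions stood at 4 of the 7 genes (*Cdx4*, *Fgf8*, *Wnt3a* and *Wnt8a*), against 56.8% of all genes with a region. Deletion-only regions also stood at 4 genes (*Cdx4*, *Fgf8*, *Nkx1-2* and *Wnt3a*), against 67.9% of such genes. *Cdx1* and *Cdx2* had shared regions and no others, whereas *Cdx4* had no shared region at all.

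**Figure D1:**
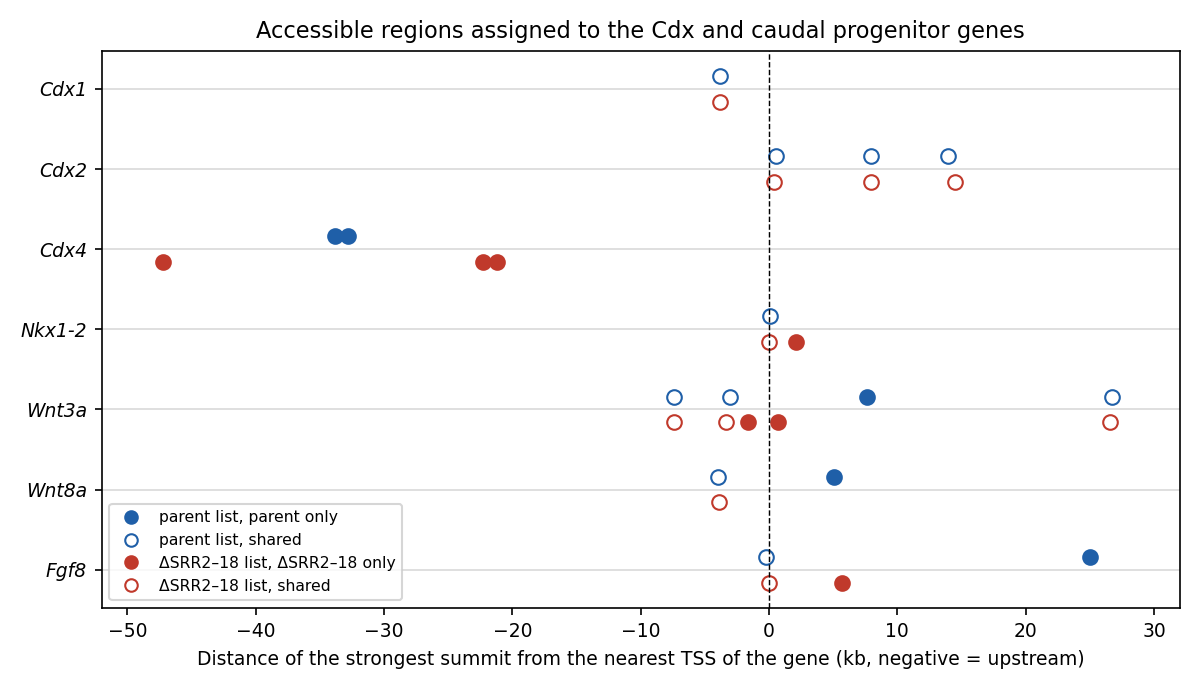
Position of the 32 regions along the 7 genes. The horizontal axis is the distance of the strongest summit from the nearest TSS of the gene in kb, blue circles are the parent list, red circles the ΔSRR2–18 list, and filled circles mark regions found in 1 list only. All 5 *Cdx4* regions are filled and lie upstream, and the 3 *Cdx2* regions are open in both lists.

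Among the 10 pairs, depth-scaled reads were highest relative to the parent at the *Cdx2* regions 7931 and 511 bp from the TSS and at *Wnt8a*, and lowest at the *Nkx1-2* and *Fgf8* promoters. By summit reads, the ΔSRR2–18 region ranked higher in its own list than its parent partner in 6 of 10 pairs, against 47.1% of all 40114 pairs. By fold enrichment over local background this held in 4 of 10 pairs, and the share over all pairs was not computed for that measure. Depth-scaled reads were at least 2 times higher in ΔSRR2–18 NSPCs in 3 of 10 pairs, against 16.0% of all pairs. They were at most 0.5 times the parent value in 2 of 10 pairs, against 16.5% of all pairs. The median ratio over all pairs was 0.847, with a 5th percentile of 0.258 and a 95th percentile of 4.79. Intervals below are exact 95% intervals and cover counting error only.

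**Figure D2:**
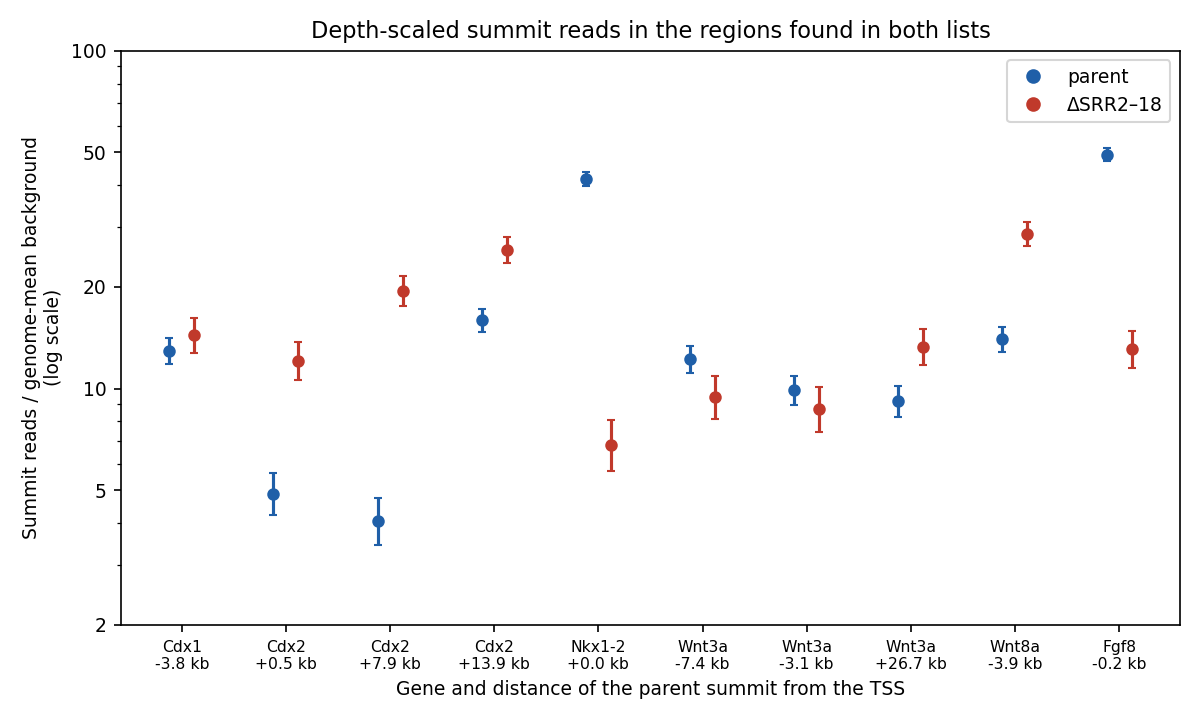
Depth-scaled summit reads of the 10 overlapping pairs, parent in blue and ΔSRR2–18 in red, on a log axis. Points are values of the pooled lists and bars are exact 95% Poisson intervals. The red points are above the blue ones by the widest gap at the *Cdx2* region 7931 bp from the TSS (19.4 against 4.07) and below them by the widest gap at *Nkx1-2* (6.82 against 41.7).

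*Cdx2* (ENSMUSG00000029646.3, chr5:147300805-147307270, reverse strand) had 3 regions in each list, and each had more depth-scaled reads in ΔSRR2–18 NSPCs. By rank of fold enrichment over local background, the third region went the other way. The first covered the start of the gene, with its summit in a coding exon of *Cdx2* in both lists. It held 190 summit reads in the parent list (chr5:147306382-147307309) and 238 in the ΔSRR2–18 list (chr5:147306358-147307372), at the lower depth of the latter. That is 4.89 depth-scaled reads against 12.1, a ratio of 2.48 (interval 2.04 to 3.01), which 12.5% of all pairs equalled or passed.

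The second *Cdx2* region lay in intergenic DNA past the 3′ end of the gene, with summits 7931 and 7929 bp from the TSS, 2 bp apart. The parent region (chr5:147299220-147299907) held 158 summit reads and the ΔSRR2–18 region (chr5:147299045-147299964) held 382. Depth-scaled reads were 4.07 and 19.4, and the ratio of 4.78 (interval 3.96 to 5.79) was equalled or passed by 5.02% of all pairs. By summit reads it stood in the top 98.7% of the parent list, close to the bottom, and in the top 46.8% of the ΔSRR2–18 list. The difference held at all 3 summits of the region, whose ratios were 4.78, 5.39 and 3.83. Both this region and the one at the start of the gene had a low IDR score in the parent list (641 and 802, where 1000 is the highest value) and 1000 in the ΔSRR2–18 list. Neither had an overlap in the parent optimal list, so the optimal lists count both as deletion-only.

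The third *Cdx2* region was intergenic as well, 13939 bp from the TSS in the parent list (chr5:147292855-147293796) and wider in the ΔSRR2–18 list (chr5:147291732-147293548). Its strongest summits differed in place by 574 bp. By fold enrichment it stood in the top 24.2% of the parent list and the top 54.7% of the ΔSRR2–18 list. The parent list had 1 summit here, of 620 reads, and the ΔSRR2–18 list had 4, of 394, 175, 507 and 374 reads. At the position of the parent summit, the depth-scaled reads were 16.0 in the parent and 19.0 in ΔSRR2–18 NSPCs, a ratio of 1.19 (interval 1.05 to 1.36). The strongest ΔSRR2–18 summit, of 25.8 depth-scaled reads, lay outside the parent interval. The AP-1 consensus TGAGTCA shown above was centred 17 bp from that summit, also outside the parent interval. The TSS of *Pdx1*, which encodes a homeodomain factor of the pancreas, was 22798 bp from that summit, and the microRNA gene *Mir7k* was nearer than *Cdx2* itself.

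*Cdx1* (ENSMUSG00000024619.8, chr18:61018862-61036199, reverse strand) had 1 region in each list, 3813 and 3818 bp upstream in intergenic DNA. It held 503 summit reads in the parent list (chr18:61039510-61040319) and 283 in the ΔSRR2–18 list (chr18:61039721-61040143). Depth-scaled reads were 12.9 and 14.4, and the interval of the ratio of 1.11, from 0.958 to 1.29, included 1. Fold enrichment over local background was 12.6 in the parent list (top 36.4%) and 4.66 in the ΔSRR2–18 list (top 91.8%). The local background of the latter was 59.9 reads. *Pdgfrb*, a growth factor receptor gene, had its TSS 5138 bp from the parent summit. Neither list had a region within 1 kb of the *Cdx1* TSS.

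*Cdx4* (ENSMUSG00000031326.2, chrX:103321398-103330592, forward strand) had 2 parent regions and 3 ΔSRR2–18 regions, none of them shared and none within 1 kb of its TSS. All 5 lay upstream in an intron of the transcribed unitary pseudogene *4930519F16Rik*. The strongest by depth-scaled reads was deletion-only, 22266 bp upstream (chrX:103298941-103299521), with 961 summit reads, 48.9 depth-scaled reads and a fold enrichment over local background of 28.2. By fold enrichment it was in the top 0.791% of the ΔSRR2–18 list, and by summit reads in the top 16.4%. A second deletion-only region began shortly beyond it, with its summit 21156 bp upstream (chrX:103300103-103300381) and 201 reads. The third was 47221 bp upstream (chrX:103273978-103274424), with 149 reads.

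The 2 parent-only regions of *Cdx4* lay between these, 33779 and 32796 bp upstream. The first (chrX:103287165-103287924) held 1408 summit reads, or 36.2 depth-scaled reads. The other (chrX:103288410-103288785) held 284 reads, with an IDR score of 788, and was missing from the parent optimal list. Both parent summits fell inside the processed pseudogene *Gm19200*, and the strongest ΔSRR2–18 summit fell inside the processed pseudogene *Gm14848*, 22 bp from its start. Reads that fit a parental gene copy as well were not examined here. With noncoding genes and pseudogenes included in the search for the nearest TSS, none of the 5 regions went to *Cdx4*.

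*Nkx1-2* (ENSMUSG00000048528.7, chr7:132594878-132599637, reverse strand) had a shared promoter region and a deletion-only region within the gene. The strongest summits of these regions also lay in an intron of *Fgfr2*, an FGF receptor gene, and in an exon of the antisense gene *Gm16764*. At the promoter the parent list (chr7:132599246-132600288) held 1619 summit reads and the ΔSRR2–18 list (chr7:132599292-132600377) held 134, at summits 46 and 36 bp past the TSS in the untranslated part of the first exon. Depth-scaled reads were 41.7 and 6.82, and the ratio was 0.164 (interval 0.136 to 0.195). A ratio this low or lower was found in 2.04% of all pairs. By summit reads the region stood in the top 25.7% of the parent list and the top 91.6% of the ΔSRR2–18 list. The parent summit 142 bp upstream, of 1624 reads, was matched by a ΔSRR2–18 summit of 134 reads, a ratio of 0.163. The ΔSRR2–18 promoter region was missing from the ΔSRR2–18 optimal list. The deletion-only region (chr7:132597070-132598198) had its strongest summit of 178 reads, or 9.05 depth-scaled reads, in a coding exon 2083 bp past the TSS. It was 151 bp from the nearest start of *Gm16764*, which overlaps *Nkx1-2*.

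*Fgf8* (ENSMUSG00000025219.13, chr19:45736798-45742915, reverse strand) also had a promoter region with fewer depth-scaled reads in ΔSRR2–18 NSPCs. The parent region (chr19:45742405-45743467) held 3 summits of 1913, 1323 and 1028 reads, and the ΔSRR2–18 region (chr19:45742347-45743259) held 3 summits of 113, 212 and 257 reads. The order from the most upstream summit to the most downstream one was reversed: the parent was highest upstream of the gene and the ΔSRR2–18 list inside it. Strongest summit against strongest summit, depth-scaled reads were 49.2 and 13.1, a ratio of 0.265 (interval 0.232 to 0.303), and 5.24% of all pairs had a ratio this low or lower. Matched by position, the ratios were 0.117, 0.317 and 0.494 from the most upstream summit inwards.

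*Fgf8* had 1 region of each genotype besides. The parent-only region (chr19:45717503-45718188) lay 25023 bp past the nearest TSS in intergenic DNA, with 421 summit reads. The deletion-only region (chr19:45736824-45737891) had its summit in a coding exon 5669 bp past the nearest TSS, with 260 summit reads, or 13.2 depth-scaled reads, which is close to the 13.1 of the ΔSRR2–18 promoter summit.

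**Figure D3:**
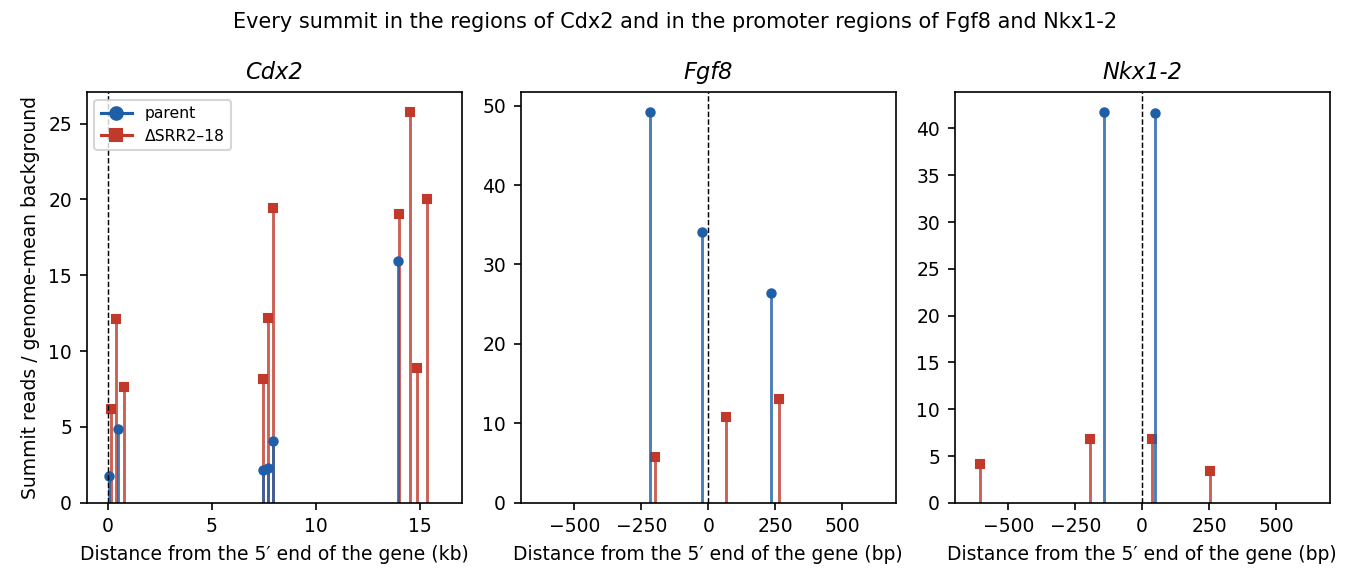
Every summit in the *Cdx2* regions, and the summits within 700 bp of the 5′ end of *Fgf8* and *Nkx1-2*, as depth-scaled reads against distance from the 5′ end of the gene (kb for *Cdx2*, bp for the others). Blue circles are parent summits and red squares ΔSRR2–18 summits. At *Cdx2* the red stems exceed the blue ones at each place, while at *Fgf8* and *Nkx1-2* all blue stems (26.5 to 49.2 and 41.7 to 41.8) exceed all red ones.

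*Wnt3a* (ENSMUSG00000009900.7, chr11:59248033-59290752, reverse strand) had the most regions of the 7 genes, 4 in the parent list and 5 in the ΔSRR2–18 list. In the intron 26749 bp past the TSS, the parent held 357 summit reads (chr11:59263702-59264513) and the ΔSRR2–18 list 261 (chr11:59263695-59264598), a depth-scaled ratio of 1.44 (interval 1.23 to 1.70). At the place of the parent summit there, the ratio was 1.26 (interval 1.06 to 1.49). The pair 3071 bp upstream held 384 and 171 reads, with a ratio of 0.880 whose interval (0.730 to 1.06) included 1. Its strongest summits were 267 bp apart, and at the place of the parent summit the ratio was 0.443 (interval 0.346 to 0.560). The pair 7399 bp upstream held 475 and 186 reads, with a ratio of 0.774 (interval 0.650 to 0.919).

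The regions of *Wnt3a* found in 1 list only lay in the gene or shortly before its start. The parent-only region (chr11:59282859-59283517) was in an intron 7611 bp past the TSS, with 1064 summit reads and a fold enrichment of 23.4, in the top 3.45% of the parent list by that measure. Of the deletion-only regions, the one 1602 bp upstream (chr11:59292056-59292583) held 230 reads, or 11.7 depth-scaled reads. The other (chr11:59289715-59290174) lay in the intron 689 bp past the TSS and held 133 reads, or 6.77 depth-scaled reads. The parent optimal list had a region over the *Wnt3a* TSS itself (chr11:59290237-59291272, 183 summit reads) that the parent conservative list lacked and that overlapped neither ΔSRR2–18 list.

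*Wnt8a* (ENSMUSG00000012282.2, chr18:34542313-34548273, forward strand) had 1 shared region upstream and 1 parent-only region within the gene. The shared region held 545 summit reads in the parent list (chr18:34538199-34538693), 3937 bp upstream, and 565 in the ΔSRR2–18 list (chr18:34538199-34538720). Depth-scaled reads were 14.0 and 28.7, a ratio of 2.05 (interval 1.82 to 2.31), which 15.6% of all pairs equalled or passed. By fold enrichment it stood in the top 31.8% of the parent list and the top 4.33% of the ΔSRR2–18 list. The parent-only region (chr18:34546954-34547762) had 571 summit reads in a coding exon, 5025 bp past the TSS. No region lay within 1 kb of the *Wnt8a* TSS in either list.

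**Figure D4:**
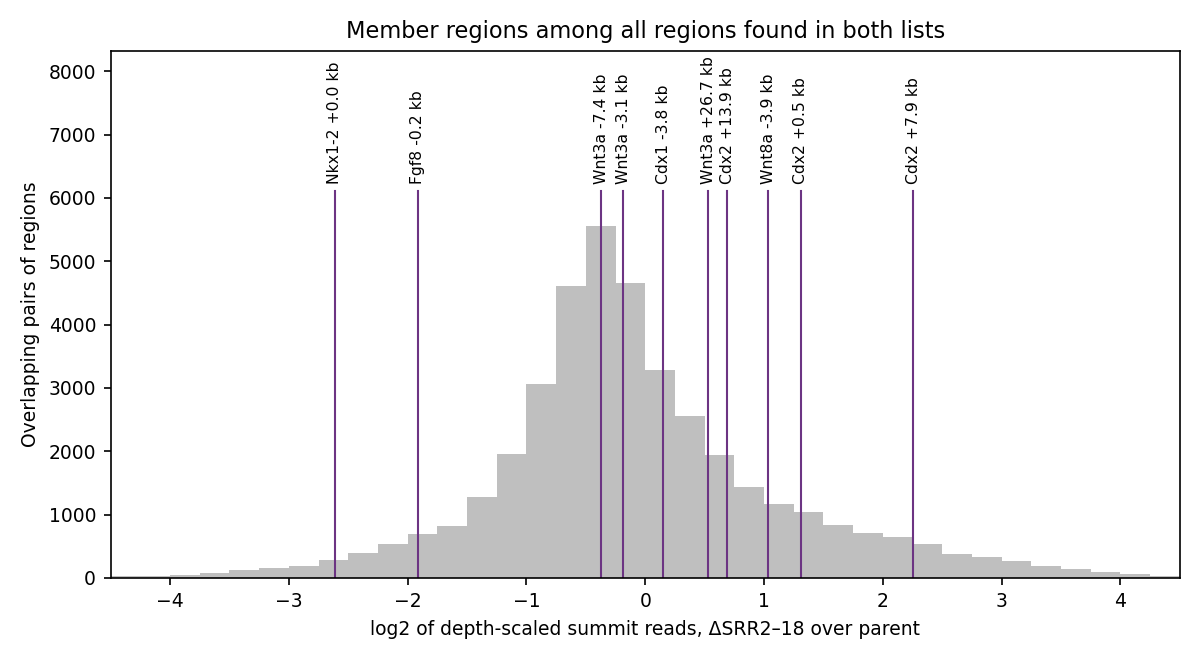
Distribution of the depth-scaled ratio over all 40114 overlapping pairs, as log2 of ΔSRR2–18 over parent on the horizontal axis and the number of pairs on the vertical axis. Purple lines mark the 10 pairs of the 7 genes. *Nkx1-2* and *Fgf8* lie in the left tail (ratios of 0.164 and 0.265), the *Cdx2* region 7931 bp from the TSS in the right tail (4.78), and the others between them.

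What the regions share in sequence was read in the 201 bases around each strongest summit, with exact matches on both strands. The consensus TGANTCA is its own reverse complement and was counted once per site. It was found at 6 of the 17 ΔSRR2–18 summits, against 37.9% of all ΔSRR2–18 regions, and at 1 of the 15 parent summits, against 7.28% of all parent regions. Of the 7 deletion-only summits 4 held it, against 50.7% of all deletion-only regions. With the central base held to C or G, the same counts of 6, 1 and 4 were found, against 31.0% of all ΔSRR2–18, 5.13% of all parent and 41.6% of all deletion-only regions. These 4 were the 3 of *Cdx4* and the one 1602 bp upstream of *Wnt3a*. The strongest *Cdx4* summit held it 2 times, centred 1 and 68 bp from the summit. In the *Wnt3a* window it was 2 bp from the summit. The *Wnt8a* region upstream of the gene held the same single match in both lists, centred 23 bp from the parent summit and 9 bp from the ΔSRR2–18 summit. None of the 5 parent-only summits held it, against 4.59% of all parent-only regions.

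The other 3 deletion-only summits, at *Nkx1-2*, *Fgf8* and the start of *Wnt3a*, were rich in G and C instead. Their windows held 28, 20 and 21 CG dinucleotides, where the 4 windows with an AP-1 match held 0 to 7 and the median of all deletion-only regions was 2. The GC content was 70.6%, 71.6% and 64.2%, against a median of 45.8%. The promoter summits of *Fgf8* and *Nkx1-2* that were higher in the parent had 80.6% and 69.2% GC, and the coding exon of *Cdx2* that was higher in ΔSRR2–18 NSPCs had 67.7% at its ΔSRR2–18 summit. Windows rich in CG were thus found among regions that were higher and regions that were lower in ΔSRR2–18 NSPCs.

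The consensus of the CDX factors themselves (TTTATNG) was in none of the 32 windows, against 5.33% of all parent and 9.10% of all ΔSRR2–18 windows. The consensus of TCF/LEF, the factors through which WNT signals reach DNA, is CTTTGAT. It was in none of the 32 windows either, against 2.16% of all parent and 2.36% of all ΔSRR2–18 windows. The SOX consensus (ACAATG) was in 1 parent window, the parent-only region of *Fgf8*, and in 2 ΔSRR2–18 windows, the strongest *Cdx4* summit and the *Wnt3a* intron, against 13.0% of all parent and 10.6% of all ΔSRR2–18 windows. The HOX-PBX consensus (TGATNNAT) was in 1 ΔSRR2–18 window, that of the *Wnt3a* intron, against 13.4% of all ΔSRR2–18 windows, and in no parent window, against 5.73%. The strongest summits of the *Wnt3a* intron region were 216 bp apart. Over its whole interval this region held 1 HOX-PBX and 2 SOX matches in both lists, so its windows differ only by the summit chosen. A missing match says only that these letters are not in the window.

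Beyond the 7 genes, 27 other genes were listed for the tail bud and its WNT, FGF and NOTCH signals. Not all are particular to it, as with *Gbx2* and *Olig3* below. The 27 genes held 128 parent and 131 ΔSRR2–18 regions. Of these, 62 were parent-only (48.4%, against 52.3% of all parent regions) and 64 deletion-only (48.9%, against 63.1% of all ΔSRR2–18 regions). In lists of equal length, where only the ΔSRR2–18 list was cut, 86 of 128 parent regions were parent-only (67.2%), above the 60.0% of all parent regions there. Deletion-only regions outnumbered parent-only ones at 11 genes, the reverse held at 9, and the numbers were equal at 7. The same count over all genes was not computed. Over all regions there were 67794 deletion-only and 43385 parent-only ones, so these gene counts have no background. The genes with the most deletion-only regions were *Greb1*, a hormone-responsive gene, with 7 deletion-only and 3 parent-only regions, *Sp8*, a zinc finger factor of limb and tail outgrowth, with 6 and 1, *Wnt5a*, a noncanonical WNT ligand, with 6 and 5, and *Fgfbp3*, which encodes an FGF-binding protein, with 5 and 1. Among the genes with the most parent-only regions were *Wnt5b* with 8 parent-only and 4 deletion-only regions, *Axin2*, a feedback inhibitor of WNT signals, with 5 and 4, *Gbx2*, a homeodomain factor of the anterior hindbrain, with 5 and 2, and *Olig3*, a factor of dorsal neural progenitors, with 5 and 0. *Wnt5a* equalled the last 3 with 5. Of the mesoderm factors among the 27 genes, *T* had 2 parent-only and 3 deletion-only regions, *Msgn1* had 2 of each and *Tbx6* had shared regions only. The mesoderm markers *Meox1*, *Tcf15* and *Mesp2* were not among the 27.

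**Figure D5:**
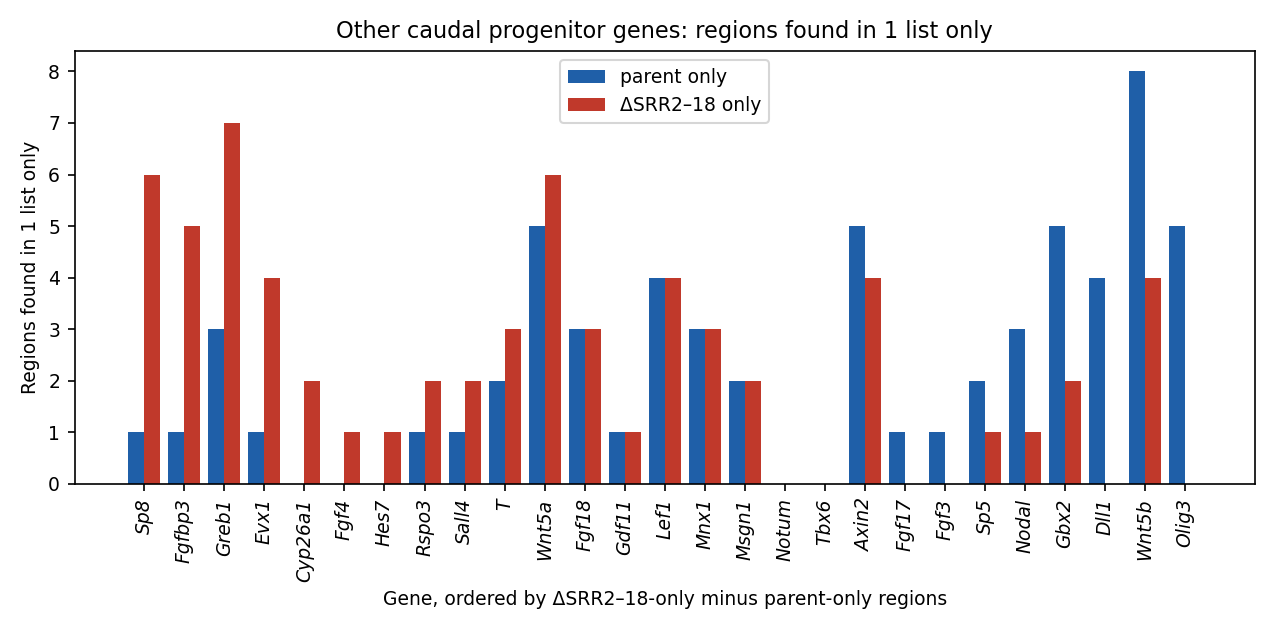
Regions found in 1 list only at the 27 other listed genes, not all of them particular to the tail bud, as counts on the vertical axis. Parent-only regions are in blue and deletion-only regions in red. Genes are ordered from those with a surplus of deletion-only regions, led by *Sp8* (6 against 1), to those with a surplus of parent-only regions, ending with *Olig3* (0 against 5).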

How the data were processed

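Open chromatin was profiled by ATAC-seq in 3 cultures each of parent and ΔSRR2–18 NSPCs. The authors’ reads were aligned to mm10 and processed with the ENCODE pipeline. The authors deposited 4 peak lists pooled over cultures. The deposited values of a peak are its IDR score, its fold enrichment relative to the local background and its −log10 p-value, all at a given summit. The lowest score corresponds to an IDR of 0.05. Because mm10 holds no Cast alleles, Cast reads may be lost in mapping.

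Distinct intervals were regions, described by their summit of highest fold enrichment. The fold enrichment and −log10 p-value were solved together for summit reads and local background under the Poisson model of MACS2. All solved reads were rounded, and a peak counted as recovered when its solved value was within 0.05 of a whole number. Depth came from the lowest background of each list. An overlap of 1 bp made regions shared. TSSs were those of GENCODE M21 basic. Motif windows reached 100 bp to each side of the summit. The steps were tested on simulated data in Python 3 with numpy and scipy. No p-values were computed, since each genotype has 1 pooled list. The members, gene lists and motifs were chosen with earlier results of these data known. All 7 members were named with every region, and of the 27 other genes the 4 with the most deletion-only and the 4 with the most parent-only regions, ties by symbol. The alternatives were the optimal lists, an IDR score of at least 830, lists of equal length, 50% reciprocal overlap, merged intervals, a distance of 10 kb, all annotated genes, absence from both lists, other rank measures, another depth scale and other motif windows. Matching of summits within 100 bp and a central C or G in the AP-1 consensus were added after seeing the data. RNA levels were not analysed here.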

Additional observations from a re-analysis of the deposited data

How the results depend on the processing

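No paired analysis was possible because the lists are pooled over cultures, and for the same reason no culture could be left out. Merging changed nothing, since no intervals within a list overlap. The 5 parent-only, 7 deletion-only and 10 shared parent regions of the members became 9, 9 and 6 in the optimal lists, 6, 7 and 6 at an IDR score of at least 830, and 10, 5 and 5 in lists of equal length. The parent-only share went from 33.3% (52.3% over all regions) to 60.0% (51.3%), 50.0% (52.4%) and 66.7% (60.0%), and the deletion-only share from 41.2% (63.1%) to 60.0% (63.0%), 53.8% (62.9%) and 50.0% (60.2%). Within 10 kb the counts were 2 of 10, 4 of 12 and 8 of 10, and with all annotated genes 3 of 12, 3 of 12 and 9 of 12. Shares over all regions were not computed for these settings. The pairs ranking higher in the deletion list were 6 of 10, 4 of 6 in the optimal lists, 4 of 6 at the higher IDR score, 4 of 5 in lists of equal length, 5 of 10 by −log10 p and 4 of 10 by fold enrichment. At the 27 other genes, 62 of 128 parent regions were parent-only (48.4%). This became 86 of 128 in lists of equal length (67.2%, against 60.0% over all regions), 19 of 66 within 10 kb (28.8%) and 36 of 87 with all annotated genes (41.4%). Of 131 ΔSRR2–18 regions, 64 were deletion-only (48.9%). This became 42 of 82 in lists of equal length (51.2%, against 60.2% over all regions) and 21 of 69 within 10 kb (30.4%). With depth taken from the median pair, the ratio rose beyond its interval to 1.31 at *Cdx1*, 1.91 at the third *Cdx2* region, 0.313 at *Fgf8*, 1.71 in the *Wnt3a* intron and 2.42 at *Wnt8a*, and 1.04 upstream of *Wnt3a* lay on the other side of 1 from 0.880. With summits matched by position, added after seeing the data, the ratio was 1.19 at the third *Cdx2* region, 0.117 at *Fgf8* and 0.443 upstream of *Wnt3a*. Over whole intervals, matches in the 15 parent regions were found in 3 regions for CDX, 1 for HOX-PBX, 1 for TCF/LEF, 5 for SOX and 2 for AP-1. In the 17 ΔSRR2–18 regions they were found in 2, 3, 1, 4 and 6. The AP-1 share over all whole intervals was 20.2% in the parent list and 48.2% in the ΔSRR2–18 list. In windows of 50 bp the SOX consensus was in 0 parent and 1 ΔSRR2–18 windows. For motifs other than AP-1, the share over all regions was not computed for whole intervals or windows of 50 bp. In lists of equal length, parent regions became parent-only where the cut removed their ΔSRR2–18 partner. The causes of the other shifts were not tested. In all, 61 of 93 alternative values stayed within the limits set for them, a fold change for counts and shares and the interval for ratios. Some of the 61 could not differ. Merging changed no interval, and pairs with strongest summits within 100 bp were already matched by position. The total is therefore no measure of robustness. The central base of the AP-1 consensus changed no count of members.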
